A study of Mus musculus with 8 samples.

Results

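Genes through which the liver takes up glucose, commits it to glycolysis and traps fructose were compared between 4 mouse genotypes. The set was given as 8 genes, namely Slc2a2, Gckr, Pklr, Pfkl, Pfkfb1, Khk, Gpi1 and Mlxipl, and its members were the probe sets that the array annotation assigned to 1 of these symbols and to no other gene. Of the 8 genes, 6 were measured, with 9 probe sets, among 12393 genes in all. Pfkfb1 and Gpi1 were not analysed here. A gene with several probe sets was read from the brightest one, averaged over the 8 arrays, and the further probe sets of Pklr and Pfkl served as a check.

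RNA came from liver of mice on a C57BL background, fed standard chow, and was hybridised to Affymetrix arrays. The genotypes were wild-type, SHP-/-, OB-/- (a leptin knockout) and the leptin and SHP double knockout OB-/-/SHP-/-, with 2 arrays each. Leptin is the adipocyte hormone that restrains feeding, and mice that lack it become obese and insulin resistant. SHP is the product of Nr0b2, an orphan receptor that cannot bind DNA itself and represses other transcription factors in the liver. The labels give no age or sex, do not restrict either deletion to a tissue, and do not say whether an array holds 1 animal or a pool.

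Hepatocytes take up glucose and fructose through the facilitative transporter GLUT2, the product of Slc2a2. The protein encoded by Gckr restrains the phosphorylation of glucose when glucose is low. Fructose is phosphorylated by ketohexokinase, the product of Khk, which lets it enter glycolysis below the first committed step. Pfkl encodes the liver subunit of phosphofructokinase, the first committed enzyme of glycolysis, and Pklr encodes the pyruvate kinase of liver and red cells, its last enzyme. Mlxipl encodes ChREBP, a transcription factor that sugar metabolites activate and that binds, with its partner Mlx, to paired E-boxes in genes of glycolysis and fat synthesis. Pklr is the gene in which this type of paired E-box was defined.

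The Pklr promoter sequence is shown because it holds the paired E-box of a gene on which the results turn, and stretches of the Khk and Mlxipl promoters are shown because each holds the single palindromic E-box CACGTG. All come from the RefSeq promoter table on build GRCm38.p6, whose windows run from 250 bases before to 50 bases after a listed start, and all are on the plus strand. The Pklr window is chr3:89136373-89136672 in whole, the Khk stretch is chr5:30921461-30921520 and the Mlxipl stretch is chr5:135089765-135089824. Capitals mark the motif.
Pklr: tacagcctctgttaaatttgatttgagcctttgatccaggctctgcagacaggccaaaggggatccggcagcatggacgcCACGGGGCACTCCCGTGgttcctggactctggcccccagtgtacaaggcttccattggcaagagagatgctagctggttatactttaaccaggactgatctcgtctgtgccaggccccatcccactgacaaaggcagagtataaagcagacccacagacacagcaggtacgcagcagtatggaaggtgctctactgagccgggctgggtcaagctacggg
Khk: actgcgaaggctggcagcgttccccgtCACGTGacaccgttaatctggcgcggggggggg
Mlxipl: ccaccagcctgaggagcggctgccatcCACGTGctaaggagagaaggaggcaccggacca

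The motif in Pklr begins 170 bases before the listed start, and Pklr has a further listed start whose window lacks it. It was found by searching for CACGNG and CNCGTG spaced by 5 bases of any kind, a pattern present in 15 of 32851 windows of the same length (0.0457%). A looser form with CANGNG and CNCNTG at the same spacing, which includes every strict match, was present in 0.557% of windows. CACGTG was present in 7.15% of windows, and its first base lay 71 bases before the start in Khk and 98 bases before a start in Mlxipl. Each motif was searched on both strands, and each reads the same on either. The windows of Slc2a2, Gckr and Pfkl held none of the 3 motifs, which says only that these letters are not in those windows.

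The values were log2 expression values from 2.20 to 14.19, with array medians from 5.45 to 5.56. Correlations were 0.992 to 0.995 between arrays of a genotype and 0.973 to 0.993 between arrays of different genotypes, so the ranges overlap. The targeted gene Nr0b2 lay at 8.71 to 8.74 on the wild-type arrays, 7.78 to 8.31 on the SHP-/- arrays, 8.01 on both OB-/- arrays and 6.66 to 7.11 on those of the double knockout. The SHP-/- and OB-/- values overlap, and the labels do not say whether the probe set lies in the deleted part. In limma's test Nr0b2 did not pass in SHP-/- against wild-type (log2 difference -0.68, adjusted p = 0.286). It passed in OB-/-/SHP-/- against OB-/- (-1.13, adjusted p = 0.0108). Lep read 3.16 to 3.53 on the 8 arrays, so its loss does not show in these values. Arrays labelled OB-/- replicate 1 and SHP-/- replicate 1 stood apart in a gene each. Xist read 7.41 on the first of these arrays and 4.31 to 4.70 on the others. The Y-linked gene Eif2s3y read 6.99 on the first and 6.57 to 7.50 on the others. Fos read 11.95 on the second and 5.17 to 6.98 on the others. Calls below are therefore also given without this pair of arrays. Hepatocyte markers summed to 65804 to 73791 on the linear scale on every array, which fits the label of the tissue. By genotype the sums were 70627 to 73791 in wild-type, 71673 to 72486 in SHP-/-, 65804 to 68721 in OB-/- and 68436 to 69964 in OB-/-/SHP-/-. Of these markers only Cps1 passed in OB-/- against wild-type (log2 difference -0.51, limma adjusted p = 0.0250). In bulk liver, fewer cells of a type and less RNA per cell cannot be told apart. Since the labels do not say that the 2 arrays of a genotype hold RNA of different animals, p-values measure only how far these samples spread, and that spread may be technical.

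Loss of leptin moved 4 of the 6 measured members. In OB-/- against wild-type, Pklr, Khk and Slc2a2 rose and Mlxipl fell, while Gckr and Pfkl did not pass the test. Over all genes, 16.9% were called in this comparison, with 7.58% rising and 9.36% falling, where a call is an adjusted p below 0.05. The median log2 difference was 0.44 over the members and -0.01 over all genes. The arrays of the 2 genotypes did not overlap for any of the 6 members, nor for 57.5% of all genes.

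**Figure D1:**
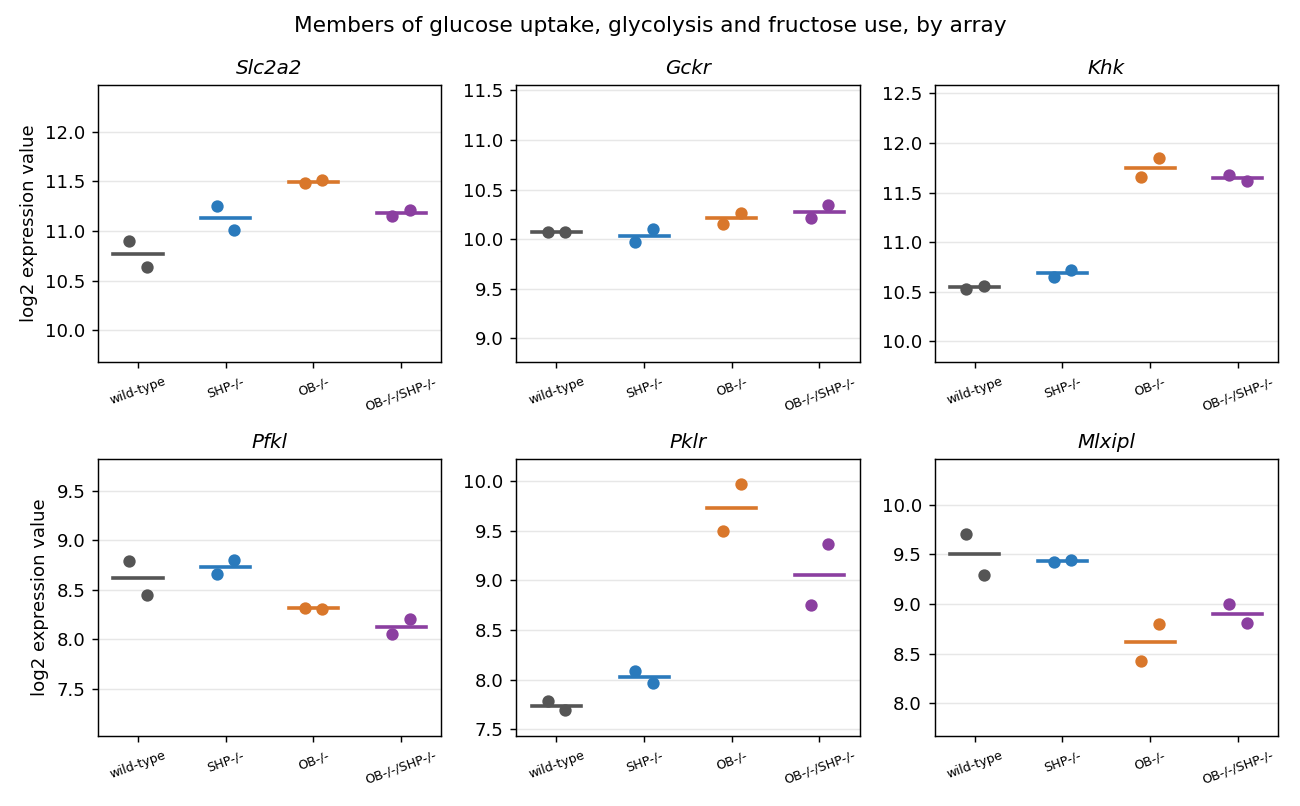
Log2 expression value (y axis, 1 scale per panel, each spanning the same range in log2 units) of each measured member in the 4 genotypes (x axis); each point is an array and each bar the mean of 2 arrays. Khk forms a low pair of genotypes between 10.52 and 10.72 and a high pair between 11.62 and 11.85, while Pklr in OB-/-/SHP-/- lies between OB-/- and SHP-/-.

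Slc2a2, the transporter, read 10.90 and 10.63 on the wild-type arrays, 11.25 and 11.01 on the SHP-/- arrays, 11.48 and 11.51 on the OB-/- arrays, and 11.15 and 11.21 on the OB-/-/SHP-/- arrays. Wild-type arrays were the lowest and OB-/- arrays the highest, and the SHP-/- and OB-/-/SHP-/- arrays overlapped between them. Slc2a2 rose in OB-/- against wild-type by 0.73 ± 0.15 on the log2 scale (SE, adjusted p = 0.00620), or 1.66-fold. Without wild-type replicate 2 the difference was 0.60 and the call was lost (adjusted p = 0.0587), and without both arrays that stood apart it was 0.75 (adjusted p = 0.0393).

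Against a background without SHP the Slc2a2 difference was near 0. OB-/-/SHP-/- minus SHP-/- gave 0.05 ± 0.15 (adjusted p = 0.868). SHP-/- lay 0.36 ± 0.15 above wild-type (adjusted p = 0.628, unadjusted p = 0.0295) and OB-/-/SHP-/- lay 0.32 ± 0.15 below OB-/- (log2 difference -0.32, adjusted p = 0.437). The interaction, which tests whether SHP loss acted alike with and without leptin, was -0.68 ± 0.21, with an unadjusted p of 0.00700 and an adjusted p of 0.291, so a difference between the backgrounds was not called.

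Gckr, the inhibitor of glucose phosphorylation, was the steadiest member, with a range of 0.37 over the 8 arrays. It read 10.07 on both wild-type arrays, 9.97 and 10.10 on those of SHP-/-, 10.16 and 10.27 on those of OB-/-, and 10.21 and 10.34 on those of OB-/-/SHP-/-. The SHP-/- arrays lay on either side of the wild-type value, and the OB-/- and OB-/-/SHP-/- arrays overlapped each other. Gckr passed no test, at 0.14 ± 0.13 for OB-/- minus wild-type (adjusted p = 0.547) and 0.24 ± 0.13 for OB-/-/SHP-/- minus SHP-/- (adjusted p = 0.279).

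Khk, which starts fructose use, separated the leptin-deficient arrays from the others. It read 10.52 and 10.56 on the wild-type arrays, 10.65 and 10.72 on the SHP-/- arrays, 11.65 and 11.85 on the OB-/- arrays, and 11.67 and 11.62 on the OB-/-/SHP-/- arrays. All 4 leptin-deficient arrays lay above all 4 others by at least the distance between 10.72 and 11.62. Khk rose in OB-/- against wild-type by 1.21 ± 0.13 (adjusted p = 1.5e-04), or 2.31-fold, and in OB-/-/SHP-/- against SHP-/- by 0.96 ± 0.13 (adjusted p = 0.00119), or 1.95-fold. Both calls held, at 1.31 and 0.92, without the arrays that stood apart.

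The SHP comparisons of Khk passed no test, at 0.14 ± 0.13 for SHP-/- minus wild-type (adjusted p = 0.927) and -0.10 ± 0.13 for OB-/-/SHP-/- minus OB-/- (adjusted p = 0.851). Downstream of Khk, triokinase (Tkfc) phosphorylates the glyceraldehyde that fructose yields. Tkfc read 9.02 and 9.22 on the wild-type arrays, 9.07 and 9.32 on the SHP-/- arrays, 9.45 and 9.53 on the OB-/- arrays, and 8.75 and 9.15 on the OB-/-/SHP-/- arrays. Its OB-/- arrays were the highest, but it passed no test: OB-/- against wild-type gave 0.37 ± 0.17 (adjusted p = 0.167) and OB-/-/SHP-/- against OB-/- gave -0.54 ± 0.17 (adjusted p = 0.166).

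Pfkl read 8.79 and 8.44 on the wild-type arrays, 8.65 and 8.80 on the SHP-/- arrays, 8.32 and 8.31 on the OB-/- arrays, and 8.05 and 8.20 on the OB-/-/SHP-/- arrays. The wild-type and SHP-/- arrays overlapped, and the OB-/- arrays lay below them and above those of the double knockout. The difference was -0.30 ± 0.15 in OB-/- against wild-type (adjusted p = 0.210). Pfkl fell in OB-/-/SHP-/- against SHP-/- by 0.60 ± 0.15 (adjusted p = 0.0283), or 1.52-fold. The call was lost when any 1 of the 4 arrays compared was left out, with adjusted p from 0.0578 to 0.138. On the other Pfkl probe set the difference was -0.22 ± 0.16 (adjusted p = 0.458).

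Pklr had the widest range of the 6 members, 2.28 on the log2 scale. It read 7.79 and 7.69 on the wild-type arrays, 8.08 and 7.96 on the SHP-/- arrays, 9.50 and 9.97 on the OB-/- arrays, and 8.75 and 9.36 on the OB-/-/SHP-/- arrays. No genotypes overlapped, in the order wild-type, SHP-/-, OB-/-/SHP-/- and OB-/-. Pklr rose in OB-/- against wild-type by 2.00 ± 0.21 (adjusted p = 1.1e-04), or 4.00-fold, the rise ranked 55 among all genes. It rose in OB-/-/SHP-/- against SHP-/- by 1.03 ± 0.21 (adjusted p = 0.0100), or 2.05-fold.

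Both Pklr calls held, at 2.23 and 1.09, without the arrays that stood apart. Without OB-/-/SHP-/- replicate 2 the second difference was 0.73 and the call was lost (adjusted p = 0.0752). The difference between SHP-/- and OB-/-/SHP-/- is the one called between neighbours in the order on this probe set. SHP-/- minus wild-type was 0.29 ± 0.21 (adjusted p = 0.872) and OB-/-/SHP-/- minus OB-/- was -0.68 ± 0.21 (adjusted p = 0.164, unadjusted p = 0.00736). The interaction was -0.97 ± 0.29 (adjusted p = 0.291, unadjusted p = 0.00707).

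The other 2 Pklr probe sets gave the same order of genotypes. On the second brightest Pklr read 6.85 and 7.08 on the wild-type arrays, 7.55 and 7.23 on the SHP-/- arrays, 9.31 and 9.48 on the OB-/- arrays, and 8.36 and 8.58 on the OB-/-/SHP-/- arrays. On the third it read 6.56 and 6.45, 6.93 and 6.82, 8.88 and 8.88, and 8.04 and 8.49 in that order of genotypes. The arrays of no 2 genotypes overlapped on either. In OB-/- against wild-type the differences were 2.43 ± 0.16 (adjusted p = 6.3e-06) and 2.38 ± 0.16 (adjusted p = 7.0e-06), adjusted over the 20380 probe sets that name 1 gene.

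The effect of SHP loss in leptin-deficient liver was called on the second brightest probe set, where the OB-/-/SHP-/- arrays lay below those of OB-/- and Pklr fell by 0.93 ± 0.16 (adjusted p = 0.0178). There the interaction was -1.35 ± 0.23 (adjusted p = 0.0296). On the third probe set the same values were -0.62 ± 0.16 (adjusted p = 0.117) and -0.99 ± 0.23 (adjusted p = 0.119). The sign was the same on all 3 probe sets, and the call was made on 1 of them.

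**Figure D2:**
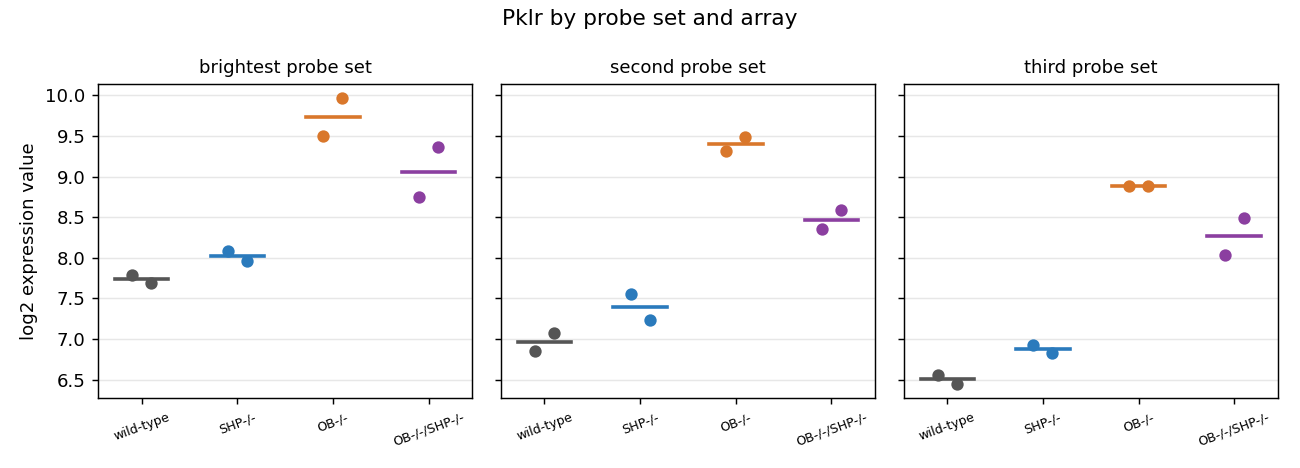
Log2 expression value (y axis, shared by the panels) of the 3 Pklr probe sets in the 4 genotypes (x axis); points are arrays and bars are means of 2 arrays, with the brightest probe set on the left. In each panel the OB-/- arrays are highest, the OB-/-/SHP-/- arrays next and the wild-type arrays lowest.

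Mlxipl, the gene of ChREBP, moved opposite to Pklr. It read 9.71 and 9.30 on the wild-type arrays, 9.42 and 9.44 on the SHP-/- arrays, 8.43 and 8.80 on the OB-/- arrays, and 9.00 and 8.80 on the OB-/-/SHP-/- arrays. The SHP-/- arrays lay between the wild-type arrays, and all 4 leptin-deficient arrays lay below all 4 others. Mlxipl fell in OB-/- against wild-type by 0.89 ± 0.18 (adjusted p = 0.00597), or 1.85-fold. The call was lost without OB-/- replicate 1 (-0.70, adjusted p = 0.0673), without wild-type replicate 1 (-0.68, adjusted p = 0.0694) and without both arrays that stood apart (adjusted p = 0.0768). Against SHP-/- the double knockout differed by -0.53 ± 0.18 and did not pass (adjusted p = 0.0822). Only mRNA was measured, so these values do not include the activation of ChREBP protein by sugars.

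In OB-/-/SHP-/- against SHP-/-, which shares no array with OB-/- against wild-type, 3 of the 6 members were called. Pklr and Khk rose and Pfkl fell, beside 10.6% of all genes called, 4.95% rising and 5.62% falling. The median log2 difference was 0.15 over the members and 0.03 over all genes. The arrays did not overlap for 5 of the 6 members, nor for 53.9% of all genes. The count was 2 once the arrays that stood apart were left out, and also with only the 4 arrays compared, since Pfkl was lost in both.

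SHP loss alone moved no member at the threshold. In SHP-/- against wild-type limma called 0 of 6 members, beside 0.323% of all genes (0.226% rising and 0.0968% falling). The one member with an unadjusted p below 0.05 in limma's test was Slc2a2. When SHP was lost on top of leptin, in OB-/-/SHP-/- against OB-/-, limma called 0 of 6, beside 2.14% of all genes (1.26% rising and 0.88% falling), and 1 member, Pklr, had an unadjusted p below 0.05. Arrays did not overlap for 3 of 6 members in the first of these comparisons and 4 of 6 in the second, nor for 36.1% and 40% of all genes. The interaction also gave 0 calls, beside 0.549% of all genes, with Slc2a2 and Pklr below an unadjusted p of 0.05. The share of all genes at that unadjusted threshold is not given here, so such counts are no result about the members. The median over the members was 0.13 in SHP-/- against wild-type, -0.15 in OB-/-/SHP-/- against OB-/- and -0.27 for the interaction. With a median SE of 0.15 for a difference over all genes, small shifts were not detectable with 2 arrays a genotype.

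**Figure D3:**
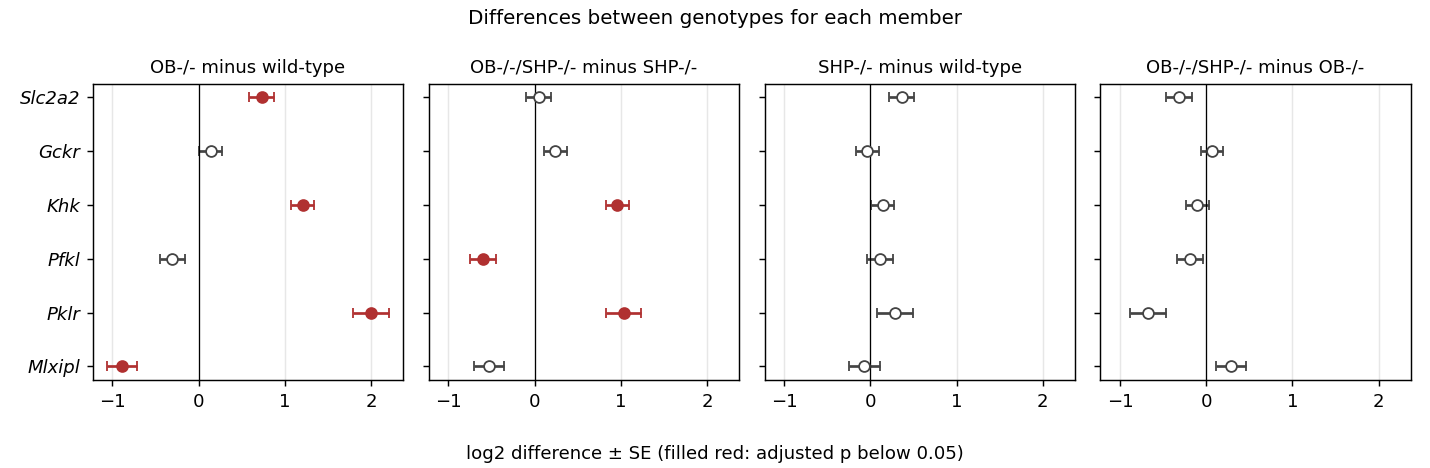
Log2 difference (x axis) with its SE as a bar for each measured member (y axis) in 4 comparisons; filled red points have an adjusted p below 0.05. Pklr and Khk are filled in both leptin comparisons, Slc2a2 and Mlxipl in OB-/- against wild-type, Pfkl in OB-/-/SHP-/- against SHP-/-, and no member in either SHP comparison.

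The double knockout was also set against wild-type, which shares its wild-type arrays with the OB-/- comparison. There 4 of 6 members were called, beside 15.9% of all genes, with 7.6% rising and 8.25% falling, and arrays did not overlap for 6 of 6 members and 56.3% of all genes. Pklr rose by 1.32 ± 0.21 (adjusted p = 0.00182) and Khk by 1.10 ± 0.13 (adjusted p = 3.2e-04). Pfkl fell by 0.49 ± 0.15 (adjusted p = 0.0481) and Mlxipl by 0.60 ± 0.18 (adjusted p = 0.0416). Both calls were lost without the arrays that stood apart, although these are not in this comparison and the differences stayed the same. Both were also lost without wild-type replicate 1, at -0.32 for Pfkl and -0.39 for Mlxipl. The other Pfkl probe set gave -0.18 ± 0.16 (adjusted p = 0.514). The Pfkl call was lost under 12 of 17 alternatives and that of Mlxipl under 5 of 16. For Slc2a2 the difference was 0.41 ± 0.15 (adjusted p = 0.0789).

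Markers of other cells and of RNA quality moved with the same comparisons. All 11 Kupffer cell and macrophage markers were measured, and 10 rose in OB-/- against wild-type, with a median log2 difference of 1.48. Their summed linear level was 1273 to 1338 on the wild-type arrays, 1808 to 3134 on SHP-/-, 3901 to 4003 on OB-/- and 3456 to 4704 on OB-/-/SHP-/-. Of the 7 measured exocrine pancreas markers, 5 rose (Clps, Prss2, Cpa1, Ctrb1 and Cpb1) and Cela1 fell in OB-/- against wild-type, and Clps, Prss2 and Cpa1 fell in OB-/-/SHP-/- against OB-/-. Their sum was 350.0 to 355 in wild-type, 317 to 348 in SHP-/-, 539.6 to 834 in OB-/- and 250.3 to 268 in OB-/-/SHP-/-. Of 7 adipocyte markers 5 were measured, and Fabp4 and Retn rose in OB-/- against wild-type, by 1.88 ± 0.16 (adjusted p = 2.7e-05) and 0.63 ± 0.17 (adjusted p = 0.0239). Both also rose in OB-/-/SHP-/- against SHP-/-, by 1.00 and 1.01, and Fabp4 fell in OB-/-/SHP-/- against OB-/- by 0.96 ± 0.16 (adjusted p = 0.00941). The adipocyte sum was 209.9 to 251 in wild-type, 204 to 268 in SHP-/-, 407 to 431 in OB-/- and 314 to 328 in OB-/-/SHP-/-, while Adipoq and Lep were not called in these comparisons. All 6 skeletal muscle markers were measured, and Acta1 fell in OB-/- against wild-type by 0.90 ± 0.17 (adjusted p = 0.00485) and in SHP-/- against wild-type by 1.01 ± 0.17 (adjusted p = 0.0383). The muscle sum was 145 to 155 in wild-type, 107 to 110.4 in SHP-/-, 114 to 118 in OB-/- and 115 to 131 in OB-/-/SHP-/-. Single markers are named here after their values were seen. On arrays no marker reads 0.

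In OB-/- against wild-type, markers of the endocrine pancreas and of erythroid cells gave no calls. Pancreatic beta cells use Slc2a2 and red cell precursors use Pklr. The 6 measured endocrine pancreas markers summed to 228 to 242 in wild-type and 239 to 267 in OB-/-, with 0 called. The lowest of these 6 read 2.96 to 3.30 in wild-type and 3.21 to 3.34 in OB-/-. The 3 measured erythroid markers, of 8 listed, summed to 586 to 717 in wild-type and 539 to 576 in OB-/-, with 0 called and 0 at an unadjusted p below 0.05. The lowest of them read 3.27 to 3.40 in wild-type and 3.28 to 3.38 in OB-/-, below the median level of all genes, 6.00. Markers so dim can miss a change in endocrine pancreas or red cells. The absence of calls therefore does not show that the share of either was alike. The erythroid sum was 440.0 to 559.6 in SHP-/- and 297 to 328 in OB-/-/SHP-/-. Alas2, the heme synthesis enzyme of red cell precursors, fell in OB-/-/SHP-/- against OB-/- by 0.90 ± 0.17 (adjusted p = 0.0155). Alas2 also fell in OB-/-/SHP-/- against SHP-/- by 0.73 ± 0.17 (adjusted p = 0.0187). Hba-a1 and Slc4a1 were called in neither, at 0.16 and 0.03 in the first of these comparisons and 0.17 and 0.13 in the second. The offset between the 3′ and 5′ probe sets of Gapdh, a measure of RNA integrity, averaged 0.90 over the wild-type arrays, 0.27 over SHP-/-, -0.04 over OB-/- and 0.07 over OB-/-/SHP-/-. The Actb offset averaged 1.88, 1.30, 0.83 and 0.86 in the same order. The part of these differences in the results on the members was not tested.

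Other genes of sugar use were read from lists. The counts of all lists below stand beside the shares of all genes called. These were 16.9% in OB-/- against wild-type (7.58% rising, 9.36% falling) and 10.6% in OB-/-/SHP-/- against SHP-/- (4.95% rising, 5.62% falling). In OB-/-/SHP-/- against OB-/- the share was 2.14%. A count near these shares is no result about a list. The share of all genes at an unadjusted p below 0.05 is not given here, so counts at that threshold are no result either. Of the remaining genes of glucose uptake and glycolysis, 19 of 24 were measured. In OB-/- against wild-type 3 rose and 1 fell, with a median of -0.03. Those that rose were hexokinase 2 (Hk2), muscle-type pyruvate kinase (Pkm) and phosphoglycerate mutase (Pgam1), at 0.99 ± 0.15, 0.76 ± 0.21 and 0.47 ± 0.14 with adjusted p of 0.00116, 0.0292 and 0.0356, and aldolase A (Aldoa) fell by 0.60 ± 0.13 (adjusted p = 0.00945). The Pgam1 call was lost without any 1 of the 4 arrays compared, that of Pkm without OB-/- replicate 2 or either wild-type array, and that of Aldoa without OB-/- replicate 2 or wild-type replicate 1. The other Aldoa probe sets gave -0.54 to -0.34, the last of which did not pass (adjusted p = 0.0973). The muscle marker Acta1 fell in the same comparison, as given above, but the other muscle markers were not called there. In SHP-/- against wild-type, where Acta1 also fell, Aldoa gave -0.11 ± 0.13 and was not called. Any part of muscle RNA in the Aldoa result was not tested. Hk2 and Pkm are the forms that prevail in muscle and many other tissues. Hk2 read 4.16 and 4.10 in wild-type and 5.00 and 5.24 in OB-/-, below the median level of all genes, 6.00. Pkm read 5.00 and 5.02 on the wild-type arrays, 5.79 and 5.13 on the SHP-/- arrays, 5.55 and 5.98 on the OB-/- arrays, and 5.85 and 5.87 on the OB-/-/SHP-/- arrays. Macrophages express both, their markers rose in the same comparison as given above, and the part of this in the result was not tested. Hk2 was the 1 gene of the list that rose in OB-/-/SHP-/- against SHP-/- (0.66 ± 0.15, adjusted p = 0.0183), a call lost without OB-/-/SHP-/- replicate 1 or SHP-/- replicate 2. With the arrays that stood apart left out, 2 rose and 1 fell in the first comparison, and 2 rose in the second.

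Of 4 genes that make or break down the bisphosphate activator of phosphofructokinase, other than Pfkfb1, 2 were measured. Pfkfb3 fell in OB-/- against wild-type by 1.17 ± 0.29 (adjusted p = 0.0199), but its other probe set gave -0.23 (adjusted p = 0.425) and the call was lost without either OB-/- array or wild-type replicate 1. Among 7 of 9 measured genes of fructose, polyol and mannose handling, limma called 0 in any comparison, with 2 at an unadjusted p below 0.05 in OB-/- against wild-type and 2 in OB-/-/SHP-/- against OB-/-. Khk was thus called in the leptin comparisons while the measured genes of this list were not, which is no test of a difference between Khk and these genes.

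The pentose phosphate pathway branches from glycolysis and supplies NADPH. Of 8 genes 7 were measured, and in OB-/- against wild-type 3 rose and 1 fell, with a median of 0.26. Transaldolase (Taldo1) rose by 1.32 ± 0.14 (adjusted p = 1.4e-04), phosphogluconate dehydrogenase (Pgd) by 1.38 ± 0.18 (adjusted p = 5.3e-04) and transketolase (Tkt) by 0.95 ± 0.16 (adjusted p = 0.00216). H6pd, which encodes a related dehydrogenase of the endoplasmic reticulum, fell by 0.95 ± 0.16 (adjusted p = 0.00251). Taldo1 and Tkt also rose in OB-/-/SHP-/- against SHP-/-, by 0.90 and 0.81 (adjusted p = 0.00285 and 0.00846) and none fell. The Tkt call there was lost without OB-/-/SHP-/- replicate 2 (adjusted p = 0.0589). Of the other Pgd probe sets, 1 gave 0.73 in OB-/- against wild-type and did not pass (adjusted p = 0.0761). OB-/-/SHP-/- against OB-/- gave 0 calls by limma, with a median of -0.37. There 5 of 7 had an unadjusted p below 0.05, and these did not go the same way. H6pd was higher, at 0.51 ± 0.16, while Pgd, Rpia, Tkt and Taldo1 were lower.

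Of 15 listed genes of glycogen synthesis and breakdown, 11 were measured, and in OB-/- against wild-type 3 rose and 1 fell, with a median of -0.12. The branching enzyme Gbe1 rose by 1.47 ± 0.15 (adjusted p = 1.0e-04), glycogenin (Gyg), the primer of glycogen, by 1.31 ± 0.17 (adjusted p = 4.8e-04) and liver phosphorylase (Pygl), which breaks glycogen down, by 0.85 ± 0.13 (adjusted p = 0.00143). The phosphorylase kinase subunit Phkg2 fell by 0.49 ± 0.14 (adjusted p = 0.0304). Gbe1, Gyg and Pygl also rose in OB-/-/SHP-/- against SHP-/-, by 1.16, 0.72 and 0.72, and there liver glycogen synthase (Gys2) fell by 0.95 ± 0.23 (adjusted p = 0.0253). The Phkg2 call was lost without any 1 of the 4 arrays compared, and that of Gyg against SHP-/- without either OB-/-/SHP-/- array or SHP-/- replicate 2 (which gave 0.47). Gys2 was lost without OB-/-/SHP-/- replicate 2 and, at -0.56, without SHP-/- replicate 1. The counts without the arrays that stood apart were 3 rising and 0 falling in the first comparison and 2 rising and 0 falling in the second.

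Pyruvate, the product of Pklr, enters mitochondria through the carrier Mpc1 and Mpc2. Of 12 genes of pyruvate entry 8 were measured, and in OB-/- against wild-type 6 rose and none fell, with a median of 0.63. The pyruvate dehydrogenase kinases Pdk1 and Pdk4, which switch the dehydrogenase off, rose by 0.98 ± 0.13 (adjusted p = 5.7e-04) and 1.50 ± 0.36 (adjusted p = 0.0161). Dlat, a subunit of the dehydrogenase that they inhibit, rose by 0.74 ± 0.13 (adjusted p = 0.00347), and pyruvate carboxylase (Pcx) by 0.70 ± 0.13 (adjusted p = 0.00412). In OB-/-/SHP-/- against SHP-/- 3 rose, namely Pdk1 (0.99 ± 0.13), Mpc1 (0.55 ± 0.14) and Pdha1 (0.53 ± 0.14). When SHP was lost as well, the comparison of OB-/-/SHP-/- with OB-/- showed 2 falls, of Dlat by 0.87 ± 0.13 (adjusted p = 0.00590) and of Pdhb, another dehydrogenase subunit, by 0.71 ± 0.14 (adjusted p = 0.0227). On another probe set Dlat gave 0.49 (adjusted p = 0.307) in the first comparison and -0.37 (adjusted p = 0.732) in the last, and Pdk1 gave 1.75 in the first. With 1 array left out, Pdk4 was lost without either OB-/- array or wild-type replicate 1, Mpc1 without OB-/-/SHP-/- replicate 2 or SHP-/- replicate 1, and Pdha1 without any OB-/-, OB-/-/SHP-/- or SHP-/- array. Dlat and Pdhb in the last comparison were lost without either OB-/- array, and Pdhb also without OB-/-/SHP-/- replicate 2. These counts were 4, 1 and 0 without the arrays that stood apart.

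All 20 listed ChREBP targets that are not members were measured. In OB-/- against wild-type 10 rose and 1 fell, with a median of 0.62, while the ChREBP gene itself fell. The malic enzyme Me1, which makes NADPH, rose by 2.52 ± 0.15 (adjusted p = 1.1e-06), the desaturase Scd1 by 1.94 ± 0.19, the glycerol phosphate dehydrogenase Gpd1 by 1.31 ± 0.18 and the elongase Elovl6 by 1.77 ± 0.25. Other probe sets gave 1.51 for Me1, 6.58 for Scd1, 1.90 for Elovl6 and, for Gpd1, from 0.0070 (adjusted p = 0.982) to 2.68, so the size of the difference depends on the probe set. The transcription factor Klf10 was the gene of the list that fell, by 0.87 ± 0.13. Many of these genes are also targets of other factors, such as SREBP1, LXR and PPARγ, and the values do not tell these apart. Txnip, a target that is no enzyme of fat synthesis, gave 0.03 ± 0.21 (adjusted p = 0.944) on its brightest probe set and 0.84 ± 0.20 (adjusted p = 0.0160) on the other.

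In OB-/-/SHP-/- against SHP-/- 5 ChREBP targets rose and 1 fell, with a median of 0.41. Me1 rose by 2.21 ± 0.15 and Thrsp, a nuclear protein of lipogenesis, by 2.73 ± 0.50. The Thrsp difference was 1.61 without SHP-/- replicate 2, and its call was lost without OB-/-/SHP-/- replicate 2 (adjusted p = 0.0510) and with only the 4 arrays compared (adjusted p = 0.0562). In OB-/-/SHP-/- against OB-/- 2 fell and none rose, with a median of -0.24. The citrate lyase gene Acly fell by 1.01 ± 0.13 (adjusted p = 0.00249), with -0.83 to 0.03 on its other probe sets, and Elovl6 fell by 1.14 ± 0.25 (adjusted p = 0.0422). The other Elovl6 probe set gave -0.41 (adjusted p = 0.772), and the call was lost under 9 of 17 alternatives, among them leaving out either OB-/- array, either wild-type array or OB-/-/SHP-/- replicate 1 (-0.72). In SHP-/- against wild-type Scd1 rose by 1.04 ± 0.19 (adjusted p = 0.0499), with 3.53 ± 0.49 on its other probe set (adjusted p = 0.0150). On the brightest the call was lost under 11 of 17 alternatives, among them quantile normalisation, every single array left out except SHP-/- replicate 2, and both arrays that stood apart left out. For the interaction Klf10 was called at 1.15 ± 0.19 (adjusted p = 0.0198), and the call was lost under 7 of 15 alternatives, among them leaving out both arrays that stood apart and every single array except OB-/-/SHP-/- replicate 2 and SHP-/- replicate 2. Without both arrays that stood apart, 8 targets rose in OB-/- against wild-type, 3 rose in OB-/-/SHP-/- against SHP-/- and 1 fell in OB-/-/SHP-/- against OB-/-.

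Of 9 listed partners of ChREBP 8 were measured, and in OB-/- against wild-type 1 rose and 4 fell. Mlx, the obligate partner, rose by 0.87 ± 0.16 on its brightest probe set (adjusted p = 0.00430) and gave -0.22 ± 0.15 on the other (adjusted p = 0.388). The hepatocyte factor Hnf4a fell by 0.76 ± 0.14 on its brightest probe set, while the others ranged from -0.20 to 1.24, and Hcfc1 fell by 0.58 ± 0.13 with 0.14 and 0.43 on the others. The Hcfc1 call was lost without any 1 of the 4 arrays compared, and that of Mlx without OB-/- replicate 1. Left without the arrays that stood apart, 0 partners rose and 1 fell. The sign for Mlx, Hnf4a and Hcfc1 therefore depends on the probe set. Ogt, which attaches a sugar-derived tag to ChREBP and other proteins, fell by 1.04 ± 0.19 in OB-/-/SHP-/- against SHP-/- (adjusted p = 0.00677), with -1.01 to 0.04 on its other probe sets, and the call was lost without OB-/-/SHP-/- replicate 2 and without the arrays that stood apart.

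**Figure D4:**
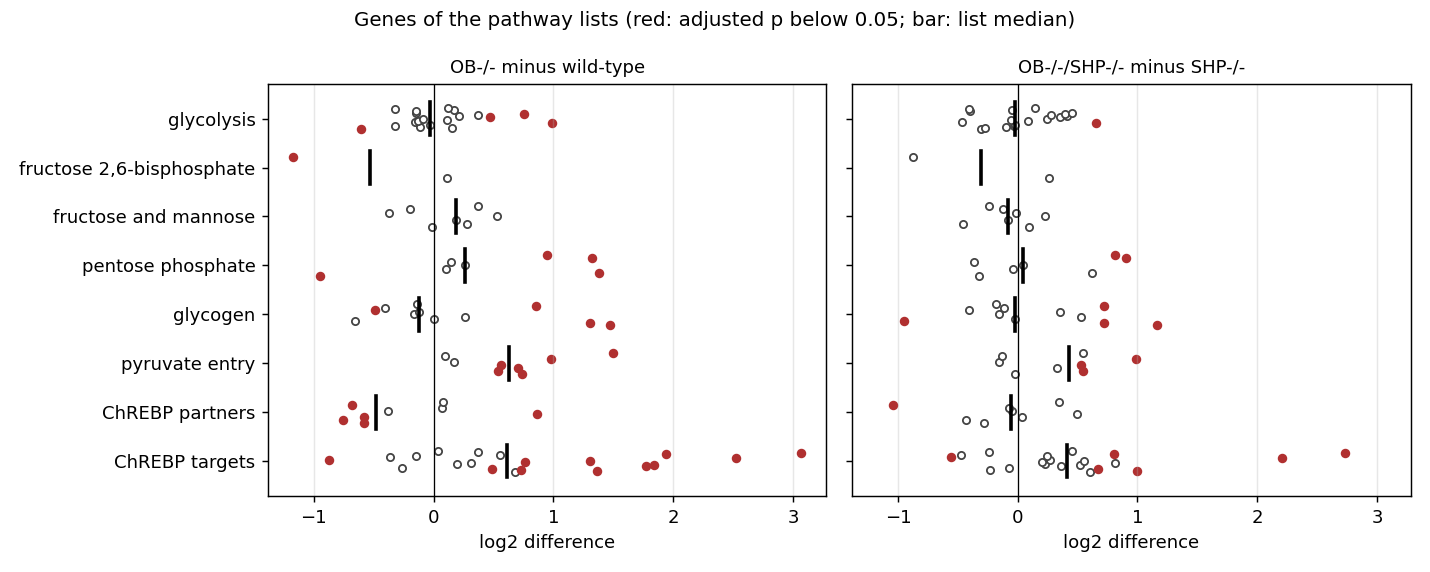
Log2 difference (x axis) of each measured gene of the 8 pathway lists (y axis) in both leptin comparisons; red points have an adjusted p below 0.05 and vertical bars are list medians. The pyruvate entry and ChREBP target medians, 0.63 and 0.62, are the highest in OB-/- against wild-type, and the glycolysis median is -0.03.

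The genes whose pattern over the 8 arrays was most like that of a member were found by the root mean square difference of log2 values after centring each gene, among genes at or above the median level. For Slc2a2 these were Gpr182 (0.0525), Ate1 (0.0710) and Galm (0.0800). For Pklr they were Clec14a (0.209), Ces2e (0.226) and Unc119 (0.230). For Khk they were Fgfrl1 (0.0889), Pdk1 (0.124) and Ntrk2 (0.140). For Pfkl they were Letmd1 (0.0701), Ctdsp1 (0.0801) and Plxnb2 (0.0806), and for Mlxipl they were Pik3ca (0.0795), Knop1 (0.109) and Utp25 (0.110). Gpr182, the closest to Slc2a2, averaged 6.02 on the wild-type arrays, 6.35 on SHP-/-, 6.69 on OB-/- and 6.38 on OB-/-/SHP-/-. Clec14a, the closest to Pklr, averaged 5.39, 5.51, 7.15 and 6.54 in the same order. Galm and Pdk1 were picked for their part in sugar use, and neither was the closest gene to its member. Galm encodes the mutarotase that interconverts the ring forms of glucose and galactose. Galm averaged 9.46 on the wild-type arrays, 9.68 on SHP-/-, 10.16 on OB-/- and 9.85 on OB-/-/SHP-/-. Pdk1, which was also in the pyruvate list, read 9.03 and 8.91 on the wild-type arrays, 8.92 and 8.79 on the SHP-/- arrays, 9.90 and 9.99 on the OB-/- arrays, and 9.87 and 9.81 on the OB-/-/SHP-/- arrays. As with Khk, the leptin-deficient arrays of Pdk1 all lay above the others.

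Few genes share the strict paired E-box of Pklr. Of the 14 genes with that motif 4 were measured, and limma called 0 of the 3 besides Pklr in OB-/- against wild-type. These were Irak1bp1 (0.43 ± 0.18, adjusted p = 0.132), Crybg3 (-0.48 ± 0.16, adjusted p = 0.0659) and A430005L14Rik (-0.27 ± 0.13, adjusted p = 0.207). Among the 67 measured genes with the looser motif besides Pklr, 13.4% rose and 11.9% fell, and among the 1069 with CACGTG 5.52% rose and 10.7% fell, against 7.58% and 9.36% of all genes.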

How the data were processed

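Gene expression was measured in liver RNA on 8 Affymetrix arrays, 2 for each of 4 genotypes, and genotype and replicate number came from the sample titles. Per the labels' protocols, RNA was extracted with Tri-reagent and biotin-labelled. The authors deposited 1 value per probe set and array, and the submitters' processing notes name R 2.15.0. These deposited values were read as log2 expression values, already normalised between arrays, because of their range and near-equal medians. How background was corrected and probes summarised, and the log base, is not given in the sources used here. No pseudocount was added and no dim gene was filtered out. Precision is limited by the number of arrays.

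Of 22690 probe sets, 64 were controls and left out, 20380 had 1 gene, 691 had several and 1555 had none. The array annotation gave the names. RefSeq (GRCm38.p6) held 20351 of the gene IDs and changed 0 symbols. The brightest probe set on average stood for each of 12393 genes. In limma 3.58.1 (R 4.3.3, with version 1.17.8 of the package data.table) the 8 arrays were fitted together, with 1 mean per genotype, 4 residual degrees of freedom and 7.16 prior ones from empirical Bayes moderation. Two-sided p-values were adjusted for all genes of a comparison by the method of Benjamini and Hochberg, and calls were made below 0.05. The error after ± is the moderated standard error (SE). Further probe sets were tested in a fit over the 20380 that name 1 gene. The fit was tested on simulated data. Promoter motifs were searched with pandas 2.3.3 for table handling, and plots were drawn with matplotlib 3.10.9.

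The members and lists were chosen with earlier results of these data known. All 8 members were to be named, and from each list and comparison up to 4 called genes with the smallest adjusted p. Tkfc, Hk2, Pkm, Txnip and Pfkfb3 were named in any case, as were some genes not reported here, with the 3 genes most like each called member. Other probe sets of named list genes, and list counts without the arrays labelled OB-/- replicate 1 and SHP-/- replicate 1, were alternatives chosen after seeing the data. The other alternatives were quantile normalisation, median centring, a filter at the 40th percentile of probe set means (4.83, which left 8263 genes), averaging all probe sets of a gene, a trend in the prior variance, a fit of only the 4 arrays compared, a block for the replicate number, and leaving out each array in turn.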

Additional observations from a re-analysis of the deposited data

Results flagged for a closer look

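The interaction of Pklr, the difference between the effect of SHP loss in leptin-deficient and in leptin-sufficient liver, was -1.35 ± 0.23 on the log2 scale on the second brightest of its 3 probe sets, and this test of the difference itself passed the threshold (adjusted p = 0.0296, limma, over all probe sets that name 1 gene). In SHP-/- against wild-type this probe set gave 0.42 ± 0.16 (adjusted p = 0.462) and in OB-/-/SHP-/- against OB-/- it gave -0.93 ± 0.16 (adjusted p = 0.0178). The interaction was -0.97 ± 0.29 (adjusted p = 0.291) on the brightest Pklr probe set and -0.99 ± 0.23 (adjusted p = 0.119) on the third, so it was called on 1 of 3 probe sets.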

How the results depend on the processing

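Of 36 values, 6 members in 6 comparisons, 11 were called. Among these, 5 kept their call and sign under every alternative run, namely Pklr and Khk in OB-/- and in OB-/-/SHP-/- against wild-type and Khk in OB-/-/SHP-/- against SHP-/-. None of the 11 changed sign. The numbers of called members ranged, with each array left out in turn, from 3 to 4 in OB-/- against wild-type, 1 to 3 in OB-/-/SHP-/- against SHP-/-, 2 to 4 in OB-/-/SHP-/- against wild-type, 0 to 1 in OB-/-/SHP-/- against OB-/-, and stayed at 0 in the other comparisons. The genes called ranged from 956 to 2234, 600 to 1307, 820 to 1998 and 80 to 298 in these 4 comparisons, from 5 to 95 in SHP-/- against wild-type (23 with only the 4 arrays compared, 68 with a trend) and from 32 to 113 for the interaction. Without both arrays that stood apart they were 1121 in OB-/- against wild-type, 632 in OB-/-/SHP-/- against SHP-/- (615 with only the 4 arrays compared), 119 in OB-/-/SHP-/- against OB-/- and 39 for the interaction. Called members numbered 2 in OB-/-/SHP-/- against wild-type, both without that pair and with only the 4 arrays compared, and 1 (Pklr) in OB-/-/SHP-/- against OB-/- with the mean of probe sets. An uncalled sign changed for Slc2a2 in OB-/-/SHP-/- against SHP-/- (-0.068 to 0.17 with an array left out), and in SHP-/- against wild-type for Gckr (-0.10 to 0.028), Pfkl (-0.062 to 0.28) and Mlxipl (-0.28 to 0.14). Without both arrays that stood apart Gckr gave 0.028 in SHP-/- against wild-type and -0.019 for the interaction. Other probe sets turned the sign in OB-/- against wild-type for Hnf4a (0.28 and 1.24, and 0.14 for the mean of probe sets), Mlx (-0.22) and Hcfc1 (0.14 and 0.43). They turned it in OB-/-/SHP-/- against wild-type for Hnf4a (0.10, 0.56 and 1.42, mean 0.41) and Mlx (-0.14), in OB-/-/SHP-/- against SHP-/- for Ogt (0.042) and in OB-/-/SHP-/- against OB-/- for Acly (0.032). Leaving out an array lowered some counts of called genes and raised others, as in SHP-/- against wild-type, where 40 became 67 and 95 without SHP-/- replicate 1 and 2. The cause of these changes was not tested.

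Replicate numbers are shared between genotypes, but deviations of same-numbered arrays correlated at -0.11 to 0.20, with 3 of 6 pairs over 0.1, so the numbers were not taken to pair the arrays. With the replicate number as a block, limma called 4 members in OB-/- against wild-type, 3 in OB-/-/SHP-/- against SHP-/- and 3 in OB-/-/SHP-/- against wild-type, where Pfkl was lost (adjusted p = 0.0579).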
